A study of Mus musculus with 6 samples.

Results

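The 7 genes described here move calcium out of the cell across the plasma membrane (the pumps Atp2b1 and Atp2b4 and the exchanger Slc8a1), let it in through TRP channels (Trpm2 and Trpv2), or take it up into mitochondria (the uniporter pore Mcu and its regulator Micu2). They were chosen by gene name, by a rule that uses no measured value but was written with earlier results of these data known, and all 7 were found among its 23398 genes. The cells were bone marrow derived dendritic cells of mice (BMDC), antigen-presenting cells grown in culture from marrow, and 3 RNA sequencing libraries came from cells given Ca(OH)2 nanoparticles for 12 hours and 3 from cells given vehicle. The labels give no mouse strain, age, nanoparticle dose or growth factor for either group, and the medium shared by both held serum and antibiotics. They also do not say whether the 3 libraries of a group came from separate mice or cultures, so the p-values below measure the spread between these libraries, which may be technical. Means are given ± SD over 3 libraries per group (n = 3). The design gives 1 comparison, nanoparticles against vehicle.

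A resting cell keeps its cytosolic calcium far below that outside. Plasma membrane calcium ATPases expel the ion at the cost of ATP, and the sodium-calcium exchanger expels it against sodium entry, so it depends on the sodium gradient made by the sodium pump. TRPM2 is a cation channel opened by ADP-ribose and calcium and known for its role in oxidative stress in myeloid cells, while TRPV2 is a cation channel abundant in macrophages and related cells. Calcium enters mitochondria through the MCU pore, which MICU2 helps to hold closed at low cytosolic calcium, which needs EMRE (Smdt1), and which MCUB, a related subunit, inhibits.

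Promoter sequences from RefSeq on build GRCm38.p6 were matched for all 7 members. Those of Micu2, the only member past the threshold, of Mcu, its partner in the pore, and of Trpv2, the most abundant member, are shown as the 250 bases before the annotated start. Micu2 is at chr14:57999263-57999512 on the minus strand, Mcu at chr10:59616693-59616942 on the minus strand, and Trpv2 at chr11:62574236-62574485 on the plus strand, the most upstream of its 3 entries. Capitals mark matches to 6 motifs searched on both strands.
Micu2: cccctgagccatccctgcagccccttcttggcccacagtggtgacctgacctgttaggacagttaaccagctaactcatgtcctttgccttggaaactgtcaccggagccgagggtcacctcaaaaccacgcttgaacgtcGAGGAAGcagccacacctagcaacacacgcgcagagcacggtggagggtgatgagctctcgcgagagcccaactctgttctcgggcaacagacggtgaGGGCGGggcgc
Mcu: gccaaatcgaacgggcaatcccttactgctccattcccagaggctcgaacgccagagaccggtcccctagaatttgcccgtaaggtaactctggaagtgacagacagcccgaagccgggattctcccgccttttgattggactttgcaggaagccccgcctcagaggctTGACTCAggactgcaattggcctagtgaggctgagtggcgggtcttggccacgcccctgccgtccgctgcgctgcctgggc
Trpv2: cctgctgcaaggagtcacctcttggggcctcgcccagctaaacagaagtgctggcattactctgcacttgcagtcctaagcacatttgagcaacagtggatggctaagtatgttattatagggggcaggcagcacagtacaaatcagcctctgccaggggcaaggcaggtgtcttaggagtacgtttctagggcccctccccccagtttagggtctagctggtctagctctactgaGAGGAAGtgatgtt
The PU.1-type ETS motif GAGGAAG was in the Micu2 and Trpv2 windows, at positions -109 and -14 from the start, and in 10.6% of all 32851 promoter windows of this length. The GC box GGGCGG was in the Micu2 window and in 32.7% of all windows. The AP-1 motif TGANTCA was in the Mcu window and in 6.75% of all windows. The E-box CACGTG (6.02% of all windows), the interferon-stimulated element (2.98%) and the NFAT core GGAAAA (20.4%) had no match in these 3 windows. These matches describe the letters and do not show that a factor binds there.

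No header names the unit of the deposited values, which were read as FPKM, since with exon lengths nearly all became whole reads. FPKM are fragments scaled to gene length and to a size set for each library. That scale allows levels to be compared between genes. Reads recovered from the values gave 17378570 to 22058943 reads per library. These totals were 0.877 to 0.893 of the library size implied by the values in vehicle libraries. In nanoparticle libraries they were 1.09 to 1.14 of it. The values as deposited are therefore not at equal totals of recovered reads, and the reason was not tested. Nanoparticle library 1 stood apart from nanoparticle libraries 2 and 3. Without it, 6696 of 10379 tested genes passed the threshold, in place of 3550 of 10682. Results of the tested members are therefore given with and without it where the call depends on it, and those of other genes only in part. The marker lists bear on the label of the cells. Of 12 dendritic cell markers, 10 were tested, 1 was higher and 3 were lower, beside 17% higher and 16.2% lower among all tested genes. The list summed to 5611 to 6012 FPKM in vehicle and 3317 to 7104 FPKM after nanoparticles. Most of that sum came from Cd74 (3902 to 4264 FPKM in vehicle and 2270 to 5273 FPKM after nanoparticles) and H2-Ab1 (982 to 1035 and 494 to 1162 FPKM). Itgax was at 442 to 456 and 248 to 398 FPKM, and Irf8 at 8.47 to 8.82 and 18.4 to 24.1 FPKM. Cd209a was at 5.17 to 6.21 FPKM in vehicle and under 0.1 FPKM after nanoparticles, while Flt3 lay below 0.1 FPKM in every library. Of 10 macrophage markers, 8 were tested, 1 was higher and 4 were lower, beside the same shares of all tested genes. Their summed level was 797 to 921 FPKM in vehicle and 553 to 606 FPKM after nanoparticles. Adgre1 was at 62.9 to 68.3 and 132 to 276 FPKM, Mrc1 at 51.8 to 62.8 and 3.10 to 10.6 FPKM, and C1qa at 118 to 167 and 26.1 to 56.5 FPKM. The 10 neutrophil markers summed to 265 to 298 FPKM in vehicle and 184 to 247 FPKM after nanoparticles, nearly all of it from Mmp8 and S100a8, and the defining genes Ly6g, Elane and Mpo lay below 1 FPKM in every library. The 7 mast cell and basophil markers in the table summed to 3.93 to 6.16 FPKM in vehicle and 10.3 to 26.1 FPKM after nanoparticles. After nanoparticles most of the sum came from Hdc (24.1, 6.69 and 6.76 FPKM in libraries 1 to 3), which was at 0.196 to 0.474 FPKM in vehicle. Gata2 was at 2.38 to 3.22 and 0.817 to 1.71 FPKM and Kit at 1.23 to 1.35 and 0.710 to 1.09 FPKM. The 7 lymphocyte, erythroid and stromal markers summed to under 0.2 FPKM in each library. The part of these shifts in the results below was not tested. In such bulk RNA, fewer cells of a type and less RNA per cell cannot be told apart.

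In vehicle libraries the members spanned a wide range of levels. Trpv2 was highest at 58.4 ± 1.98 FPKM, followed by Micu2 at 17.7 ± 0.111, Atp2b1 at 11.9 ± 0.346, Slc8a1 at 8.10 ± 1.13 and Mcu at 1.58 ± 0.0859 FPKM, while Atp2b4 and Trpm2 were lowest, at 0.335 ± 0.0708 and 0.257 ± 0.0677 FPKM. Neighbours in this order did not overlap between libraries, except that Atp2b4 and Trpm2 did. Of the 7 members, 5 had at least 1 FPKM in at least 3 libraries and were tested with limma on log2(FPKM + 1), with Benjamini-Hochberg adjustment over all 10682 tested genes. Of these 5, only Micu2 passed an adjusted p of 0.05, against 33.2% of all tested genes (17% higher and 16.2% lower). Without nanoparticle library 1, 3 of the 5 passed (Atp2b1, Slc8a1 and Micu2), against 64.5% of all tested genes (33.1% higher and 31.4% lower). With libraries set to equal totals of recovered reads, a scaling added after the data were seen, 0 of the 5 passed by limma (2, Atp2b1 and Mcu, at an unadjusted p under 0.05), against 44.3% of all tested genes (10.2% higher and 34.1% lower). The median log2 difference of the 5 was -0.10, and that over the whole tested set was -0.0010. Atp2b4 and Trpm2 did not pass this filter.

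**Figure D1:**
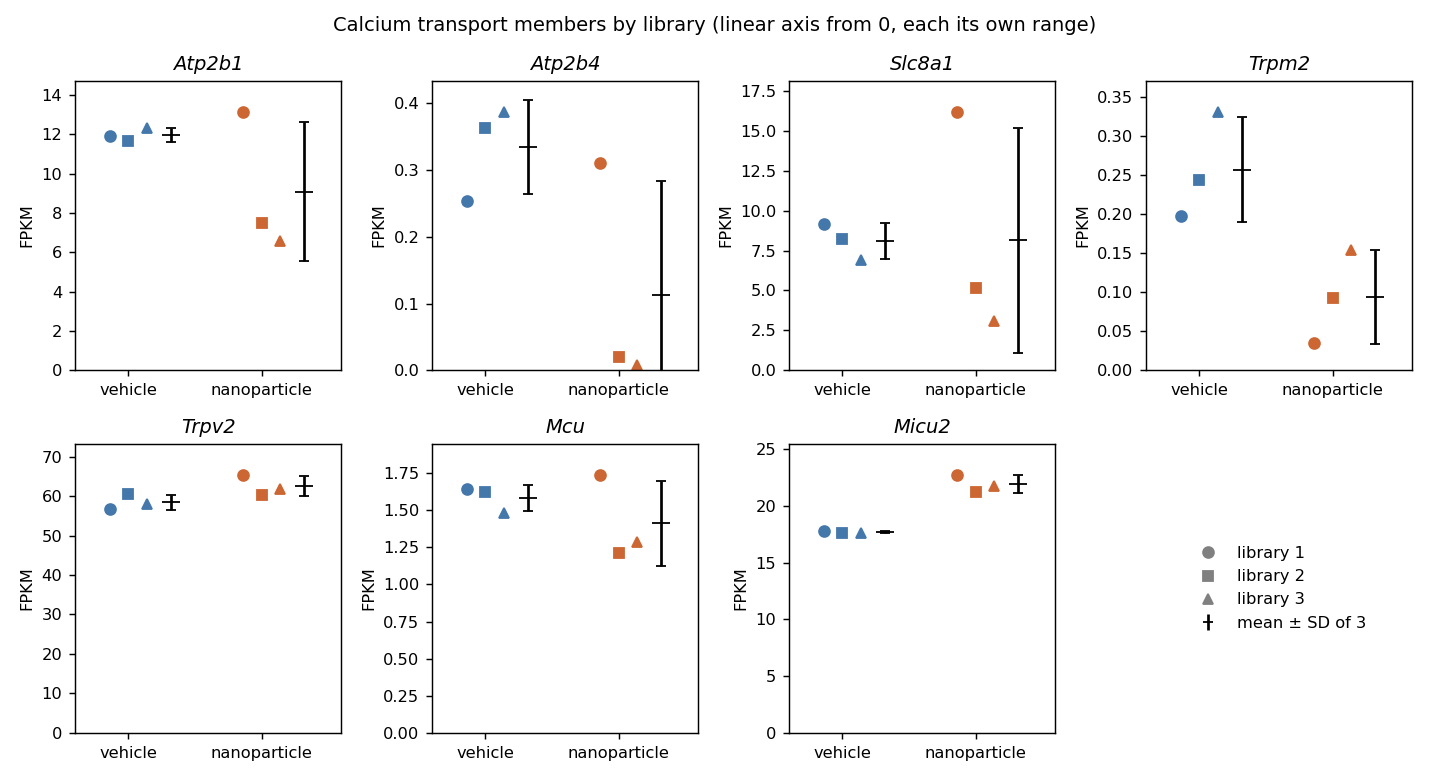
Expression in FPKM (linear axes from 0, a separate range for each gene) of the 7 members in each vehicle (blue) and nanoparticle (orange) library; symbols mark libraries 1 to 3 and black marks the mean ± SD. For Atp2b1, Slc8a1, Atp2b4 and Mcu, nanoparticle library 1 lies within or above the vehicle libraries and libraries 2 and 3 lie below them, whereas for Micu2 all nanoparticle libraries lie above vehicle and for Trpm2 all lie below.

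The plasma membrane pumps were split by library. Atp2b1 (ENSMUSG00000019943, protein coding, chromosome 10, 98914406 to 99026143, plus strand, GRCm38), the widely expressed calcium pump isoform, was at 11.9, 11.6 and 12.3 FPKM in vehicle libraries 1 to 3 and at 13.1, 7.50 and 6.59 FPKM in nanoparticle libraries 1 to 3. Nanoparticle library 1 lay above every vehicle library and the other nanoparticle libraries lay below every vehicle library. The log2 difference was -0.42 (SE 0.23, limma adjusted p = 0.226), which did not pass. Without nanoparticle library 1 it was -0.69 (SE 0.07, limma adjusted p = 2.9e-04). Those values rest on 1889 to 3914 recovered reads, so counting error is small beside the difference between nanoparticle libraries.

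Atp2b4 (ENSMUSG00000026463, protein coding, chromosome 1, 133699457 to 133801041, minus strand), a second pump isoform, was at 0.254, 0.362 and 0.387 FPKM in vehicle and at 0.310, 0.0197 and 0.00847 FPKM after nanoparticles. This corresponds to 62, 88 and 99 reads in vehicle and to 62, 4 and 2 reads after nanoparticles. Nanoparticle library 1 lay within the vehicle range and libraries 2 and 3 held almost no reads. Relative to the summed vehicle libraries the level was 0.925 (95% exact interval 0.688 to 1.23) in nanoparticle library 1, 0.0589 (0.0159 to 0.153) in library 2 and 0.0253 (0.00304 to 0.0922) in library 3, intervals that cover counting error only. Over the 3 libraries per group the difference was -0.27 on the log2(FPKM + 1) scale (two-sided exact permutation p = 0.2, or 0.35 after Benjamini-Hochberg adjustment over the 7 members). At 3 libraries per group, 0.1 is the smallest p this test allows. The exons of Atp2b4 share 6 bases with the microRNA gene Mir6903.

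Other pump genes and the subunits that pumps need were measured alongside. Atp2b2 and Atp2b3 were below 1 FPKM in every library. Bsg (basigin) and Nptn (neuroplastin) encode related membrane proteins that serve as subunits of these pumps. Bsg rose from 129 ± 4.84 to 195 ± 6.60 FPKM, a log2 difference of 0.59 (SE 0.11, limma adjusted p = 0.0075). It no longer passed at equal totals of recovered reads (0.25, limma adjusted p = 0.0923) or at equal FPKM sums (0.12, limma adjusted p = 0.376). Nptn was at 36.9 to 39.6 FPKM in vehicle libraries and at 26.0, 30.5 and 33.1 FPKM in nanoparticle libraries 1 to 3. Its groups did not overlap, as in 52.1% of all tested genes, but it did not pass (log2 difference -0.36, SE 0.12, limma adjusted p = 0.0604). Without nanoparticle library 1 it passed at -0.27 (limma adjusted p = 0.0086). Nptn also passed at equal totals of recovered reads (-0.70, limma adjusted p = 0.0034) and at equal upper quartiles (-0.55, limma adjusted p = 0.0044). At equal FPKM sums it passed at -0.82 (limma adjusted p = 6.9e-04). These scalings moved the median of all tested genes to -0.29, -0.16 and -0.39.

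The sodium-calcium exchanger Slc8a1 (ENSMUSG00000054640, protein coding, chromosome 17, 81373105 to 81738377, minus strand) showed the widest spread of the tested members. It was at 9.17, 8.22 and 6.92 FPKM in vehicle and at 16.2, 5.13 and 3.11 FPKM after nanoparticles. Nanoparticle library 1 was 2.00-fold above the vehicle mean, while libraries 2 and 3 were at 0.633 and 0.384 of it, so the group means were nearly equal at 8.10 ± 1.13 and 8.14 ± 7.03 FPKM. The log2 difference was -0.26 (SE 0.50, limma adjusted p = 0.730). Without nanoparticle library 1 it was -0.85 (SE 0.18, limma adjusted p = 0.0066), and without nanoparticle library 3 it was 0.18 (limma adjusted p = 0.791), so the direction over the group depends on single libraries. The annotated exons of Slc8a1 sum to 18807 bases, at which its values do not become whole reads. The shortest length at which they do is 2934 bases, which gives 424 to 536 reads in vehicle and 176 to 775 with nanoparticles. Multiples of that length would also give whole reads, and more of them. The level of Slc8a1 relative to other genes depends on the length used. Its exons also share 296 bases with an antisense transcript and 8 with the opposite-strand gene Gm11096, and no source used here states whether reads were counted by strand.

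Slc8b1, which encodes the exchanger that releases calcium from mitochondria, rose from 16.0 ± 0.666 to 22.2 ± 1.22 FPKM (log2 difference 0.45, limma adjusted p = 0.0129). It did not pass at equal totals of recovered reads (0.13, limma adjusted p = 0.329), equal upper quartiles (0.27, limma adjusted p = 0.160) or equal FPKM sums (0.0049, limma adjusted p = 0.977). Of the other listed exchangers of the Slc8 and Slc24 families, none reached 1 FPKM in 3 libraries. Of the sodium pump subunits, on which the exchanger depends, 4 were tested. Of these, 2 rose and 1 fell, beside 17% higher and 16.2% lower among all tested genes. Their median log2 difference was 0.31, and -0.027 at equal totals of recovered reads. The accessory subunit Atp1b1 rose from 5.35 to 7.07 FPKM in vehicle libraries to 12.7, 33.3 and 27.9 FPKM in nanoparticle libraries 1 to 3 (log2 difference 1.78, limma adjusted p = 0.0094). Without nanoparticle library 1 its log2 difference was 2.18 (limma adjusted p = 2.3e-05). The related Atp1b3 rose from 130.2 ± 3.03 to 216 ± 19.9 FPKM (log2 difference 0.72, limma adjusted p = 0.0053).

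Trpv2 (ENSMUSG00000018507, protein coding, chromosome 11, 62574486 to 62600515, plus strand) was at 56.6, 60.5 and 57.9 FPKM in vehicle and at 65.4, 60.4 and 61.9 FPKM after nanoparticles, from 4480 to 5426 reads per library. The groups overlapped, and the log2 difference was 0.10 (SE 0.10, limma adjusted p = 0.493), a sign that turned at equal FPKM sums (-0.37), equal upper quartiles (-0.091) and equal totals of recovered reads (-0.24).

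Trpm2 (ENSMUSG00000009292, protein coding, chromosome 10, 77907722 to 77970563, minus strand) was low in all libraries, at 0.197, 0.243 and 0.331 FPKM in vehicle and at 0.0344, 0.0922 and 0.154 FPKM after nanoparticles. This corresponds to 49, 60 and 86 reads in vehicle and to 7, 19 and 37 reads after nanoparticles. As in 52.1% of all tested genes, a set that does not include Trpm2, the groups did not overlap. All nanoparticle libraries lay below all vehicle libraries, with nanoparticle library 1 the lowest. Relative to the summed vehicle libraries the level was 0.133 (95% exact interval 0.0529 to 0.28) in nanoparticle library 1, 0.357 (0.21 to 0.573) in library 2 and 0.597 (0.408 to 0.852) in library 3. The difference of -0.20 on the log2(FPKM + 1) scale had the smallest p that the design allows (two-sided exact permutation p = 0.1, or 0.35 after adjustment over the 7 members). With no filter on low values its limma adjusted p was 0.0943 over 23398 genes, of which 14.4% passed (6.99% higher and 7.46% lower). Exons of Trpm2 contain the snoRNA genes Gm22394 and Gm22871, which share 44 and 47 bases with it.

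Of 5 listed genes that make or break down ADP-ribose, the ligand of TRPM2, or its polymer, 3 rose and 1 fell, beside 17% higher and 16.2% lower among all tested genes. Cd38, an ectoenzyme that makes ADP-ribose and cyclic ADP-ribose from NAD, was at 6.86 to 7.82 FPKM in vehicle and at 60.8, 66.1 and 69.4 FPKM in nanoparticle libraries 1 to 3, a log2 difference of 2.97 (SE 0.11, limma adjusted p = 3.2e-05). Bst1, a related ectoenzyme, rose from 66.6 ± 3.01 to 138 ± 12.5 FPKM, and Nudt9, an ADP-ribose hydrolase of mitochondria, rose from 19.3 ± 1.10 to 40.8 ± 5.82 FPKM (limma adjusted p = 0.0012 and 0.0020). Parp1, a nuclear enzyme that makes poly-ADP-ribose, fell from 13.2 ± 0.598 to 6.60 ± 0.742 FPKM (limma adjusted p = 0.0015). Parg, which breaks down that polymer, did not pass (log2 difference -0.05, SE 0.11, limma adjusted p = 0.778).

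Of the 25 listed TRP and other cation channels, 18 were in the table and 6 were tested, of which 1 rose and 1 fell, a share near the 33.2% of all tested genes. Trpm4, a channel opened by calcium that passes monovalent cations, rose from 2.09 ± 0.110 to 3.86 ± 0.711 FPKM (log2 difference 0.64, limma adjusted p = 0.00999), but did not pass under any of the 3 other scalings. Trpv4 fell from 1.24 ± 0.123 to 0.588 ± 0.313 FPKM (log2 difference -0.51, limma adjusted p = 0.0482). It reached the filter only through the vehicle libraries, since its nanoparticle libraries were at 0.421, 0.949 and 0.395 FPKM. Its call was lost with no filter (limma adjusted p = 0.108) and with a pseudocount of 0.1 (limma adjusted p = 0.0620). In the channels Trpm7, Pkd2 and Piezo1, as in Atp2b1, nanoparticle library 1 was above nanoparticle libraries 2 and 3, which were below every vehicle library. The mechanosensitive channel Piezo1 was at 21.4 to 22.3 FPKM in vehicle and at 22.1, 11.8 and 7.32 FPKM in nanoparticle libraries 1 to 3. It did not pass with all libraries (log2 difference -0.75, SE 0.35, limma adjusted p = 0.150) and passed without nanoparticle library 1 (-1.14, limma adjusted p = 0.0012), as did Trpm7 (-0.62, limma adjusted p = 8.2e-04) and Pkd2 (-0.57, limma adjusted p = 0.0025).

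In the mitochondrial uniporter complex, the regulator Micu2 rose and the pore gene Mcu did not pass. Micu2 (ENSMUSG00000021973, protein coding, chromosome 14, 57916261 to 57999262, minus strand) was at 17.8, 17.6 and 17.6 FPKM in vehicle and at 22.8, 21.3 and 21.8 FPKM after nanoparticles. All nanoparticle libraries lay above all vehicle libraries, and groups did not overlap in 52.1% of all tested genes. Nanoparticle library 1 was not apart from the other libraries of its group. The log2 difference was 0.29 (SE 0.09, limma adjusted p = 0.0444), a 1.24-fold ratio of means that passed narrowly. The call was lost without vehicle library 1, 2 or 3 (limma adjusted p = 0.166, 0.182 and 0.184) and without nanoparticle library 2 or 3 (0.0925 and 0.0801), and held without nanoparticle library 1 (limma adjusted p = 0.0044). The direction also rests on the scaling between libraries. At equal totals of recovered reads the median over the tested set moved to -0.29, and Micu2 itself was at -0.033 (limma adjusted p = 0.790). At equal FPKM sums it was at -0.15 and at equal upper quartiles at 0.11, neither past the threshold. Relative to the median of all genes, Micu2 was 0.25 higher at equal totals of recovered reads and 0.29 higher as deposited.

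Mcu (ENSMUSG00000009647, protein coding, chromosome 10, 59446984 to 59616692, minus strand) was at 1.64, 1.62 and 1.48 FPKM in vehicle and at 1.74, 1.21 and 1.29 FPKM after nanoparticles, from 139 to 227 reads per library. Nanoparticle library 1 was the highest of the 6 libraries and nanoparticle libraries 2 and 3 were the lowest. The log2 difference was -0.10 (SE 0.12, limma adjusted p = 0.537), and without nanoparticle library 1 it was -0.20 (SE 0.09, limma adjusted p = 0.0800). Mcub, Smdt1 and Mcur1 did not pass on the values as deposited. Mcur1 passed as lower at equal totals of recovered reads (log2 difference -0.30, limma adjusted p = 0.0432) and at equal FPKM sums (-0.42, limma adjusted p = 0.0104). Relative to the median of all genes it was at -0.015 and -0.030 under those scalings. Mcub passed as lower at equal FPKM sums (-0.84, limma adjusted p = 0.0358). Mcub, the inhibitory subunit, was at 70.8, 77.0 and 71.4 FPKM in vehicle and at 32.2, 67.1 and 80.7 FPKM after nanoparticles (limma adjusted p = 0.427). Smdt1, which encodes EMRE, was at 92.8, 101 and 93.0 FPKM and at 40.5, 101 and 121 FPKM (limma adjusted p = 0.652), and Mcur1 was at 9.19 to 10.9 FPKM in all libraries (limma adjusted p = 0.936). For Mcub and Smdt1, the lowest of the 6 values was that of nanoparticle library 1. With all libraries their log2 differences were -0.38 and -0.27. Without nanoparticle library 1 they were 0.011 and 0.21 (limma adjusted p = 0.922 and 0.0703).

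**Figure D2:**
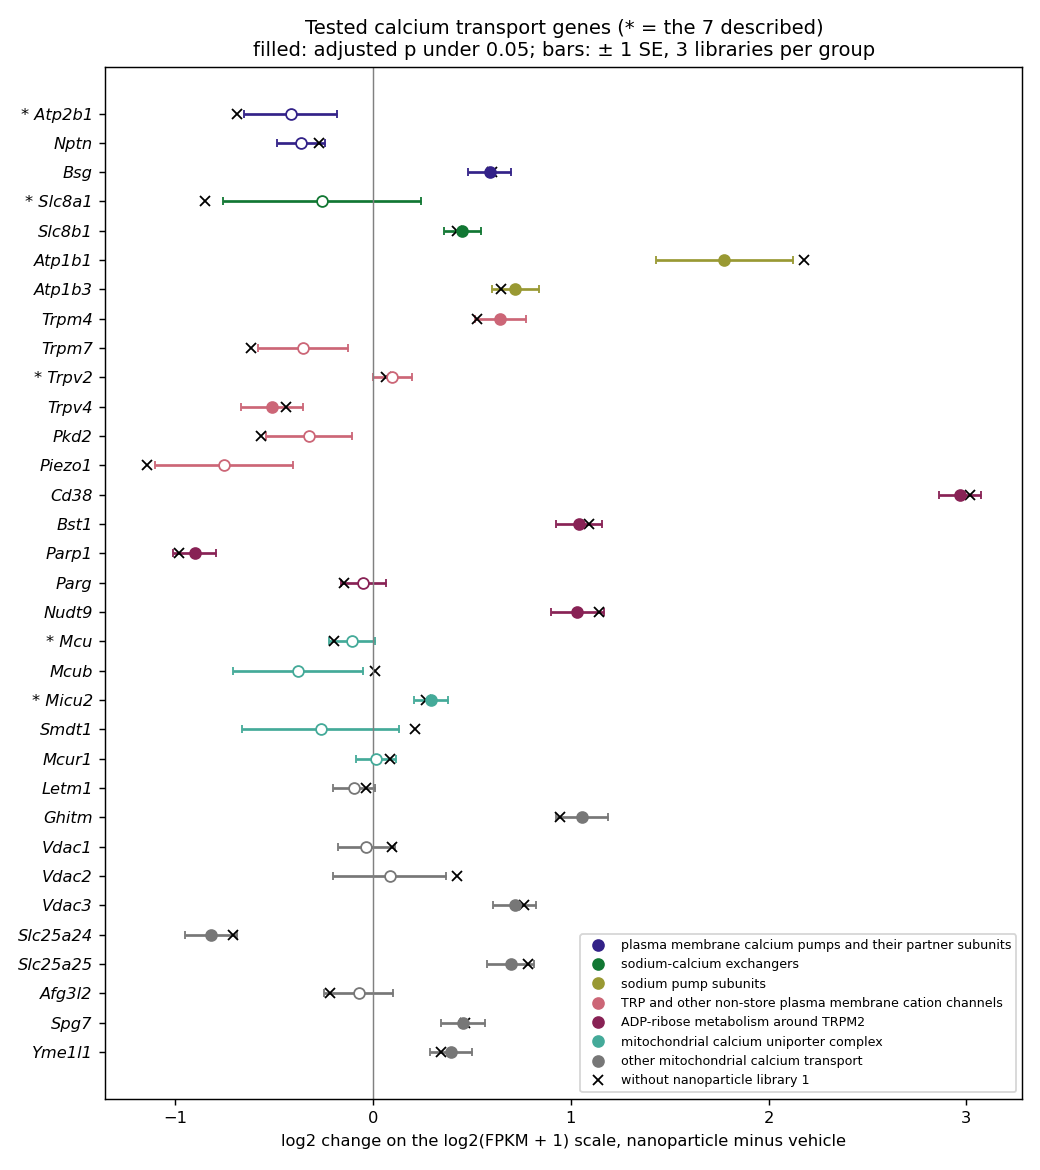
Log2 change (nanoparticle minus vehicle, on the log2(FPKM + 1) scale, ± 1 SE) of 33 of the 36 tested genes of 7 calcium transport lists; filled points passed an adjusted p of 0.05 and crosses give the change without nanoparticle library 1. Cd38 lies farthest to the right, and the crosses of Atp2b1, Slc8a1, Trpm7, Pkd2 and Piezo1 lie to the left of their points.

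To compare genes inside each library, 6 ratios of FPKM + 1 were tested with exact two-sided permutation tests, adjusted over the 6, and 5 of them are described. A plain ratio of FPKM does not depend on the scaling between libraries, but a ratio of FPKM + 1 does where a gene is near or below 1 FPKM, so plain ratios, chosen after seeing the data, are given as well. Micu2 was 10.9, 10.9 and 11.9 times as abundant as Mcu in vehicle libraries 1 to 3 and 13.1, 17.6 and 16.9 times in nanoparticle libraries 1 to 3. The groups did not overlap. On the log2 scale of FPKM + 1 the ratio was 2.86 ± 0.0436 in vehicle and 3.26 ± 0.120 with nanoparticles (exact permutation p = 0.1, adjusted p = 0.2). Mcub exceeded Mcu in every library, by 43.1 to 48.1 times in vehicle and by 18.5, 55.4 and 62.7 times in nanoparticle libraries 1 to 3, with overlapping groups (exact permutation p = 1, adjusted p = 1).

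The ratio of Trpm2 to Trpv2 was lower in all nanoparticle libraries, at -5.86 ± 0.126 against -5.56 ± 0.0834 in vehicle (log2 scale of FPKM + 1, exact permutation p = 0.1, adjusted p = 0.2). That difference of -0.30 was 0.087 at equal FPKM sums and -0.014 at equal totals of recovered reads. The plain ratio, free of the scaling, was also lower in all nanoparticle libraries, with a log2 difference of -1.77 (exact permutation p = 0.1, not adjusted) that rests on 7 to 86 reads of Trpm2 per library.

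For Atp2b1 to Atp2b4 the direction depended on the pseudocount. The plain ratio was 46.8, 32.1 and 31.8 in vehicle libraries 1 to 3 and 42.3, 380.1 and 778.3 in nanoparticle libraries 1 to 3, a log2 difference of 2.68 (exact permutation p = 0.2, not adjusted), with nanoparticle library 1 inside the vehicle range. On the FPKM + 1 scale the difference was -0.14 (exact permutation p = 0.5, adjusted p = 0.75). For Slc8a1 to Atp2b1 it was 0.16 (exact permutation p = 0.9, adjusted p = 1), with plain ratios of 0.562 to 0.772 in vehicle and of 1.23, 0.684 and 0.472 in nanoparticle libraries 1 to 3.

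**Figure D3:**
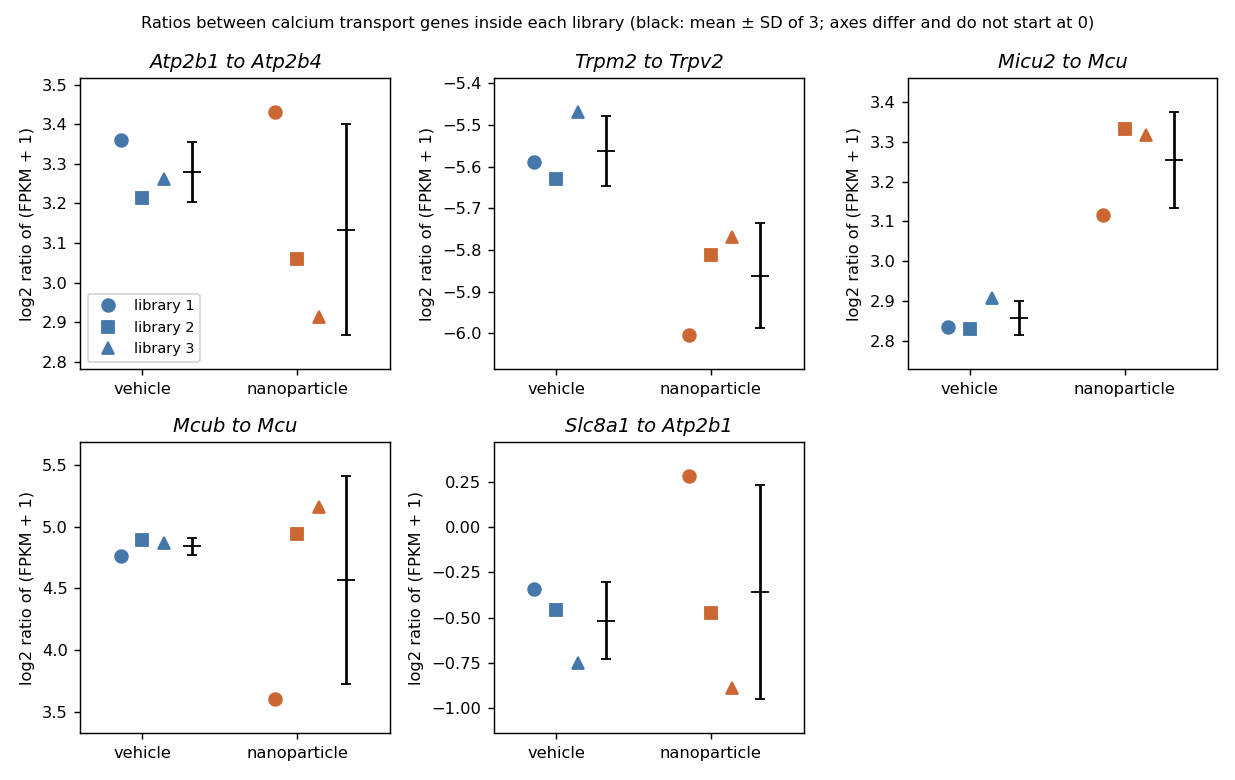
Log2 ratio of FPKM + 1 between gene pairs inside each vehicle (blue) and nanoparticle (orange) library, with the mean ± SD of 3 in black; axes differ between panels and do not start at 0. The groups are separate for Micu2 to Mcu and Trpm2 to Trpv2 and overlap for the other 3 ratios, and Atp2b1 to Atp2b4 runs the other way without the added 1 (a log2 difference of 2.68 in place of -0.14).

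Among the listed genes, gene length went along with the split among the nanoparticle libraries. Tested genes were divided by merged exon length into 5 groups of equal size. In the longest group (7115 to 41324 bases), nanoparticle library 1 exceeded the mean of libraries 2 and 3 by a median of 0.29 on the log2(FPKM + 1) scale, and in the shortest (54 to 1999 bases) it was lower by a median of -0.47. The same medians for vehicle library 1 against vehicle libraries 2 and 3 were 0.0014 and -0.00023. The mean of nanoparticle libraries 2 and 3 differed from vehicle by a median of -0.26 in the longest group and 0.36 in the shortest. Of the 36 tested calcium transport genes, 11 were in the longest group, and in 9 of these nanoparticle library 1 was above both other nanoparticle libraries, as in 71.6% of all genes of that group. Across the 36 genes, which share the same libraries and are not independent, Pearson's r between log2 length and the difference of library 1 from libraries 2 and 3 was 0.70 and Spearman's rho 0.61, beside 0.33 and 0.42 over all tested genes. With the shortest lengths that give whole reads where the annotated ones do not, which place Slc8a1 at 2934 bases, they were 0.46 and 0.41.

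Atp2b1, at 15218 bases, had a difference between nanoparticle libraries 2 and 3 and vehicle of -0.69, beyond the median of its length group. Mcu, at 6936 bases, was at -0.20, beside a median of -0.12 in its group (4854 to 7110 bases). Micu2, at 3084 bases, was at 0.27, beside a median of 0.17 in its group (2000 to 3351 bases). Trpv2, at 4485 bases, was at 0.07, beside a median of 0.03 in its group (3352 to 4852 bases). For Slc8a1 the group depends on which length is used. The part of length in these results was not tested.

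**Figure D4:**
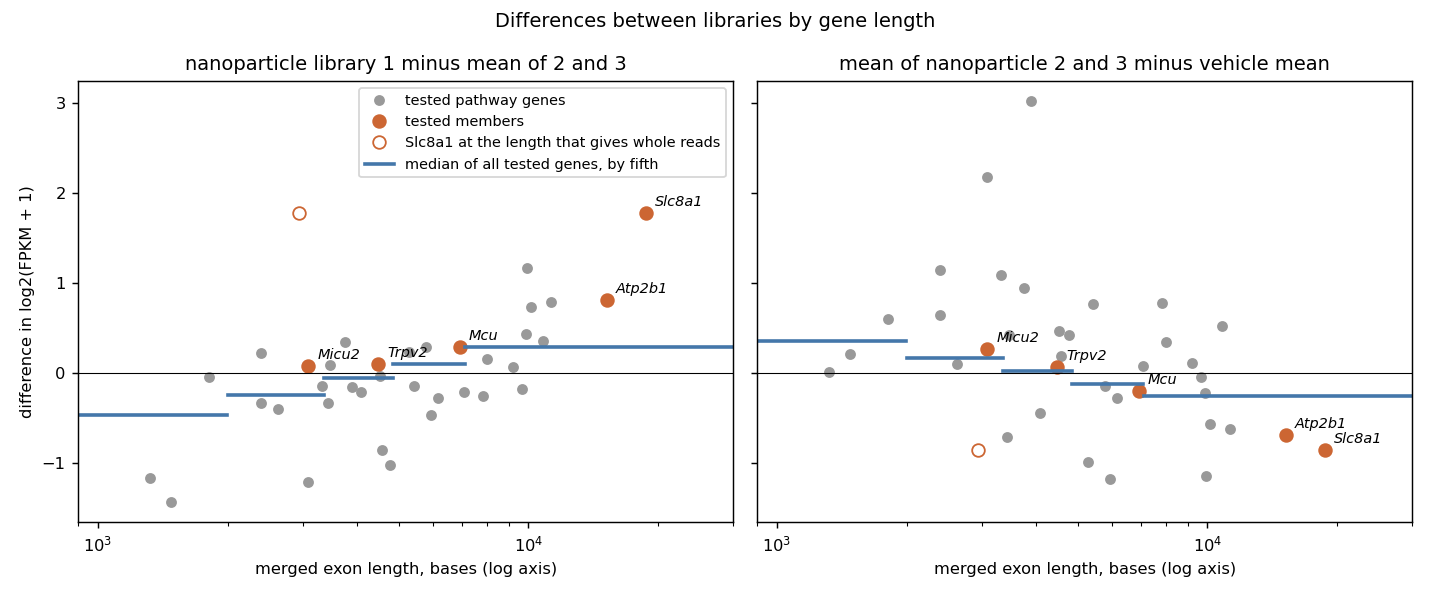
Difference in log2(FPKM + 1) against merged exon length in bases (log axis) for the 36 tested calcium transport genes (grey; members in orange), for nanoparticle library 1 minus the mean of libraries 2 and 3 (left) and for the mean of libraries 2 and 3 minus the vehicle mean (right); blue lines are medians of all tested genes in 5 length groups, and the open circle is Slc8a1 at 2934 bases. The blue lines climb from -0.47 to 0.29 on the left and go down from 0.36 to -0.26 on the right.

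Across all 7 lists, which hold 69 genes including the members, 60 genes were in the table and 36 were tested. Of the 31 tested genes that are not members, 17 passed (54.8%, against 33.2% of all tested genes), 13 of them higher and 4 lower. At equal totals of recovered reads 15 of the 31 passed (48.4%, against 44.3%), 8 higher and 7 lower, and at equal FPKM sums 16 (51.6%, against 48.8%), 5 higher and 11 lower. The lists were chosen with earlier results known, so the share is a description. Of the 12 genes listed for other mitochondrial calcium transport and its support, 11 were tested, of which 6 rose and 1 fell, with a median log2 difference of 0.40. At equal totals of recovered reads 3 rose and 2 fell, with a median of 0.079. Ghitm, which encodes an inner membrane protein with calcium transport activity, rose from 60.3 ± 1.62 to 127 ± 18.3 FPKM (log2 difference 1.06, limma adjusted p = 0.0018). Vdac3, an outer membrane channel, rose by a log2 difference of 0.72 (limma adjusted p = 0.0039), while Vdac2 was at 76.7 to 77.3 FPKM in vehicle and at 50.6, 99.6 and 108 FPKM in nanoparticle libraries 1 to 3 (limma adjusted p = 0.850). The calcium-dependent carriers of ATP-Mg and phosphate went in opposite directions, Slc25a25 higher (log2 difference 0.70, limma adjusted p = 0.0055) and Slc25a24 lower (-0.82, limma adjusted p = 0.0044). The inner membrane proteases Spg7 (0.45, limma adjusted p = 0.0211) and Yme1l1 (0.40, limma adjusted p = 0.0305) were higher, but neither passed under the other scalings.

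The calls on single genes of the lists were also followed over other settings. Of the 18 called genes, members included, 12 were also called at equal totals of recovered reads and 11 in every fit that left out 1 library. Among these 11 were Atp1b1, Atp1b3, Cd38, Bst1, Parp1, Nudt9, Ghitm, Vdac3, Slc25a24 and Slc25a25. Of these, Atp1b3, Vdac3 and Slc25a25 did not pass at equal FPKM sums (log2 differences 0.25, 0.27 and 0.32). Bsg lost its call without vehicle library 2 or 3 (limma adjusted p = 0.0588 and 0.0667), Trpm4 without vehicle library 1 or 3 (0.0572 and 0.0507) and Slc8b1 without any 1 vehicle library (0.0649 to 0.0878). Spg7 lost it without any 1 vehicle library or nanoparticle library 2 or 3 (limma adjusted p = 0.0552 to 0.101), and Yme1l1 without any 1 vehicle library or nanoparticle library 2 (0.0899 to 0.145). Trpv4 lost it without nanoparticle library 3 (limma adjusted p = 0.112) and did not reach the filter on low values without any 1 vehicle library. Of the 18, 9 passed under all 3 other scalings, among them Trpv4, which reached the filter only through the vehicle libraries. The tested gene whose levels over the 6 libraries were most like those of Micu2 was Gm20559, with Pearson's r = 0.999 on log2(FPKM + 1) and its own log2 difference of 2.08. The correlation was at least 0.99 for 270 of 10681 genes, so this likeness is shared by many genes that separate the groups.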

How the data were processed

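RNA of 3 vehicle and 3 nanoparticle libraries was extracted with a column kit and 1 µg was used for each NEBNext Ultra II library, per the labels' protocols. The submitters' processing notes list CASAVA, STAR 2.5, HTSeq, edgeR 3.16.5 and DESeq2, and the builds hg19 and mm10, with no role or order. The authors deposited 2 tables with identical values (140388 of 140388), treated as FPKM from the values, since no header or label names a unit. With GENCODE M21 exon lengths and 1 scale per library, 95.8% to 96.1% of values above 0 were whole reads (within 0.01). For 162 of 165 genes searched another length was found, and the shortest that gave whole reads was taken. Of all gene IDs, 23388 matched GENCODE M21 (GRCm38).

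Groups were compared with limma 3.58.1 in R 4.3.3 on log2(FPKM + 1), for genes reaching 1 FPKM in 3 or more libraries, with a mean-variance trend and a Benjamini-Hochberg threshold of 0.05. Fold changes of low genes are understated on this scale. Permutation tests used scipy 1.17.1 under Python 3.11.15. The fit was tested on simulated data with the same dispersion for every gene and no library that stood apart. That test does not cover a library like nanoparticle library 1. All members, called list genes, ratio partners and the nearest gene of a called member were named, with further genes of the lists given after their values were seen. Members and lists were chosen with earlier results of these data known. For library weights, the gene-by-gene estimator replaced limma's default after the default did not converge on these data. Alternatives were other scalings, pseudocount, filters, no trend, library weights, a replicate block and leaving out each library. A few genes of the lists, and 1 ratio, are counted but not reported here by name. Intervals cover counting error only.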

Additional observations from a re-analysis of the deposited data

How the results depend on the processing

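The number of genes past the threshold was 7237 with a weight per library estimated from the data (0.0438 for nanoparticle library 1; 8716 with limma's default estimator, which did not converge and was replaced after its output was seen) and ran from 1783 to 6696 when 1 library was left out. The number of called genes of the 7 lists, 18 as reported, ran from 11 to 26 on leaving out 1 library, and their median log2 difference from -0.036 to 0.11. That median was -0.40 at equal FPKM sums, -0.18 at equal upper quartiles, -0.30 at equal recovered read totals (a scaling chosen after seeing the data), 0.048 with at least 5 FPKM required (which leaves out Mcu) and 0.10 with library weights. Over the whole tested set the median was -0.39, -0.16 and -0.29 under the 3 scalings, which set the share of calls that were higher to 16.3%, 34.5% and 23% in place of 51.2%.

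With library weights Atp2b1 (log2 difference -0.63), Slc8a1 (-0.62), Mcu (-0.21) and Micu2 (0.26) passed the threshold, as did 67.7% of all tested genes. Trpv2 did not pass (0.048, limma adjusted p = 0.444). Trpv2 was at -0.37 at equal FPKM sums, -0.091 at equal upper quartiles and -0.24 at equal recovered read totals, and Micu2 at -0.15, 0.11 and -0.033, none past the threshold. With a pseudocount of 0.1 the differences of Atp2b4 and Trpm2 were -1.30 and -0.91, that of the Atp2b1 to Atp2b4 ratio was 0.84 and that of Trpm2 to Trpv2 -1.01. With no pseudocount the ratio differences were 2.68 for Atp2b1 to Atp2b4, -1.77 for Trpm2 to Trpv2 and 0.49 for Micu2 to Mcu. On the FPKM + 1 scale they were -0.49, 0.087 and 0.23 at equal FPKM sums and -0.40, -0.014 and 0.28 at equal recovered read totals, and Trpm2 to Trpv2 was -0.14 at equal upper quartiles. These ratio alternatives were chosen after seeing the data. On leaving out 1 library, log2 differences ran from -0.69 to -0.24 for Atp2b1, -0.39 to -0.21 for Atp2b4, -0.85 to 0.18 for Slc8a1, -0.24 to -0.16 for Trpm2, 0.07 to 0.12 for Trpv2, -0.20 to -0.04 for Mcu and 0.27 to 0.31 for Micu2. The ratio differences ran from -0.29 to -0.03 for Atp2b1 to Atp2b4, -0.35 to -0.23 for Trpm2 to Trpv2, 0.36 to 0.47 for Micu2 to Mcu, -0.57 to 0.21 for Mcub to Mcu and -0.16 to 0.42 for Slc8a1 to Atp2b1. The cause of these shifts was not tested.

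The replicate numbers are shared by the groups, but same-numbered libraries did not deviate together (r of deviations 0.07, 0.11 and -0.06), so they were not treated as pairs. With a replicate block 2785 genes passed, 12 of them in the lists, and Micu2 did not pass (log2 difference 0.29, limma adjusted p = 0.153). Depth limits Atp2b4 and Trpm2, which rest on 2 to 99 reads per library.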
